A study of Homo sapiens with 6 samples.

Results

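MYC, MYCN, JUN, JUNB, JUND, FOS, EGR1 and IER2 are 8 early response genes, and the poly(A) ends of their transcripts were counted by A-seq in 6 libraries. The cells were HEK293, a cell line from human embryonic kidney. Their reads were taken from fixed windows on the coding strand in hg19. The windows were MYC on chromosome 8 (plus strand, 128748000 to 128755000), MYCN on 2 (plus, 16080000 to 16088500), JUN on 1 (minus, 59245000 to 59250000), JUNB on 19 (plus, 12902000 to 12905000), JUND on 19 (minus, 18389500 to 18393000), FOS on 14 (plus, 75745000 to 75750000), EGR1 on 5 (plus, 137801000 to 137806000) and IER2 on 19 (plus, 13261000 to 13267000). Over the whole genome the same reads formed 28114 units, which are groups of neighbouring poly(A) sites on one strand, and these serve as the background for the 8 genes.

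All cells were HEK293 grown with 10% FCS. One library came from cells with no siRNA and one from cells with scrambled-A siRNA. One came from cells with siRNA Ambion S224836 against CF Im25, and one from cells with siRNA Ambion S21772 against CF Im59. RNA of these 4 libraries was fragmented by alkaline hydrolysis. RNA of the other two libraries was fragmented with RNase I, and these came from cells with scrambled-A siRNA and from cells with a Dharmacon RNA oligo against CF Im68. Cells given siRNA had been seeded at 20% density and were collected after 3 days. Whether the cells with no siRNA received the transfection reagent is not given in the sources used here. Each group held 1 library, so no difference could be set against a spread between cultures, and no p-value is given. Libraries held 5351980 to 18183644 reads, and 5129401 to 17902529 after mitochondrial reads were left out. Levels are in CPM, counts per 1000000 nuclear reads, and all intervals are 95% intervals of counting error only. Where values of all libraries follow each other, the alkaline libraries come in the order no, scrambled, CF Im25 and CF Im59 siRNA, and the RNase I libraries in the order scrambled and CF Im68.

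Immediate early genes are transcribed within minutes of a stimulus, without new protein synthesis, and their mRNAs are usually short-lived. AU-rich elements in their 3′ UTRs recruit decay factors, so the position at which such an mRNA is cleaved and polyadenylated decides which of these elements it carries. Cleavage factor Im binds UGUA in nascent RNA through its CF Im25 subunit, and its larger subunit is either CF Im59 or CF Im68. MYC and MYCN are bHLH transcription factors of cell growth. JUN, JUNB and JUND are bZIP proteins that join FOS in the dimeric factor AP-1. EGR1 is a zinc finger transcription factor, and IER2 is a nuclear early response protein.

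Poly(A) signals of JUN are shown because its cleavage sites carried the clearest changes of site use, and the last signals of JUND and EGR1 because the upstream sites of both genes gained reads with CF Im68 siRNA. In the text a site is named by its distance upstream of the last site of its gene. JUN, on the minus strand of chromosome 1, had 4 sites that each held at least 5% of its reads in the mean over libraries. They lay at 59247164, 59247056, 59246985 and 59246465 in hg19, which is 699, 591 and 520 nt upstream of the last site and the last site itself. Sequences were read from GENCODE release 29 transcripts (GRCh38), and places in them were counted from the end of the transcript, with no conversion between builds. JUN is a single-exon gene with a 3′ UTR of 1287 nt in this annotation. All its upstream sites were closer to the last site than the length of the 3′ UTR. Capitals mark the poly(A) signal hexamer, and each sequence starts at it.
JUN signal for the 699 nt site: AATAAAcagcttcatgcctttgtaagttat
JUN signal for the 591 nt site: AATAAAgtatataatttttttatgttttgt
JUN signal for the 520 nt site: AATAAActattggaaagtactcccctaacc
JUN signal for the last site: AATAAAtgtattcaaataccaataa
JUND last signal: AGTAAAgtctcgttacgcca
EGR1 last signal: AATAAAgtagctgcgattggg

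The JUN signals ended 721, 611, 545 and 19 nt before the transcript end. Set beside the 4 sites, each counted from its own last end, they preceded cleavage by 22, 20, 25 and 19 nt. In the last 1000 nt JUN had 5 AATAAA hexamers, searched on the transcript strand. The one that ended 387 nt before the transcript end had no site that reached 5% of the reads. Among 18026 genes whose longest coding transcript had at least that length, 1.90% held 5 or more. AATAAA was present in the last 50 nt of 60.2% of the longest coding transcripts of 19669 genes. AGTAAA, the hexamer of JUND and JUNB at this place, was present in 4.53%. The letters TGTA occurred 2, 2, 1 and 1 times in the 100 nt before the 4 JUN signals that had a site, in the order of the sequences above. For comparison, 23.1% of 11837 genes with a terminal AATAAA held 2 or more TGTA in the same span before it, and 56.5% held at least 1. A match of letters is a description of the sequence and shows no binding.

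The siRNA targets were lower in their own libraries. NUDT21, the gene of CF Im25, had 87.6 CPM with scrambled siRNA and 11.9 CPM with its siRNA, 7.33-fold lower (interval 6.07 to 8.92). CPSF7, the gene of CF Im59, was 2.24-fold lower and CPSF6, the gene of CF Im68, 2.91-fold lower. VIM, which HEK293 cells express, had 420 to 758 CPM in all libraries. ALB, a liver gene, had at most 2 reads. PTPRC, a leukocyte gene, had 40 reads with no siRNA and at most 6 reads in each other library.

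With siRNA against CF Im25, MYC, JUN and JUNB rose over scrambled siRNA, and no gene tested was called lower. Of the 8 genes, 5 had at least 50 reads in 1 of the libraries compared, and 3 of these were called higher. A call required a difference of at least 2-fold and an interval that left out 1. Among 14983 units tested in the same way, 13.3% were called higher and 11.9% lower. The median log2 ratio of the 5 genes was 1.33, and that of all units tested was 0.0050. JUNB entered these figures only because it was high with the siRNA. With at least 50 reads required in both libraries, a rule added after the values were seen, 2 of 4 genes were called higher, where 7.31% of 11587 units were, and the medians were 0.84 and -0.035.

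JUN had 2826 reads with no siRNA, 984 with the scrambled one, 2890 after CF Im25 siRNA and 2774 after CF Im59 siRNA. In the RNase I libraries it had 399 reads with the scrambled siRNA and 609 after CF Im68 siRNA. The JUN levels were 158, 104, 274 and 223 CPM in the alkaline libraries and 77.8 and 51.1 CPM in the RNase I libraries. CF Im25 siRNA gave the highest level and CF Im68 siRNA the lowest, and no neighbours in the order of the 6 levels had overlapping intervals. Against scrambled siRNA, JUN was 2.65-fold higher with CF Im25 siRNA (interval 2.46 to 2.85). Against no siRNA the ratio was 1.74 (1.65 to 1.83), which is below the 2-fold rule.

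MYC had 1132, 289, 807 and 910 reads in the alkaline libraries, and 207 and 336 reads in the RNase I libraries. Its levels were 63.2, 30.4, 76.5 and 73.1 CPM, and 40.4 and 28.2 CPM. The libraries with CF Im25 and CF Im59 siRNA were the highest and overlapped in their intervals, as did the lowest pair, alkaline scrambled and CF Im68 siRNA. MYC was 2.52-fold higher with CF Im25 siRNA than with scrambled siRNA (interval 2.20 to 2.89). Against no siRNA the ratio was 1.21 (1.10 to 1.33). Of the control pair, scrambled siRNA had the lower MYC level.

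JUNB had few reads, 38, 10, 53 and 54 in the alkaline libraries and 20 and 67 in the RNase I libraries. It was at 2.12, 1.05, 5.03 and 4.34 CPM, and at 3.90 and 5.63 CPM. The alkaline scrambled library was the lowest and its interval overlapped only that with no siRNA. JUNB was 4.78-fold higher with CF Im25 siRNA than with scrambled siRNA, with a wide interval (2.41 to 10.5). It reached the minimum of 50 reads only in the knockdown libraries, so it could be tested there only because it was high. Against no siRNA, of 5 genes tested JUNB alone was called, at 2.37-fold (1.53 to 3.69). Of 17207 units in that comparison, 9.69% were called higher and 10.5% lower.

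JUND and EGR1 were tested with CF Im25 siRNA and were not called. JUND, an AP-1 member with a steadier level than its relatives in many cells, had 88.9 CPM with scrambled siRNA and 113 CPM with CF Im25 siRNA, a ratio of 1.27 (1.16 to 1.39). EGR1 had 8.31 and 6.73 CPM, a ratio of 0.810 (0.580 to 1.13). MYCN, FOS and IER2 stayed below 50 reads in every alkaline library and could not be tested there.

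**Figure D1:**
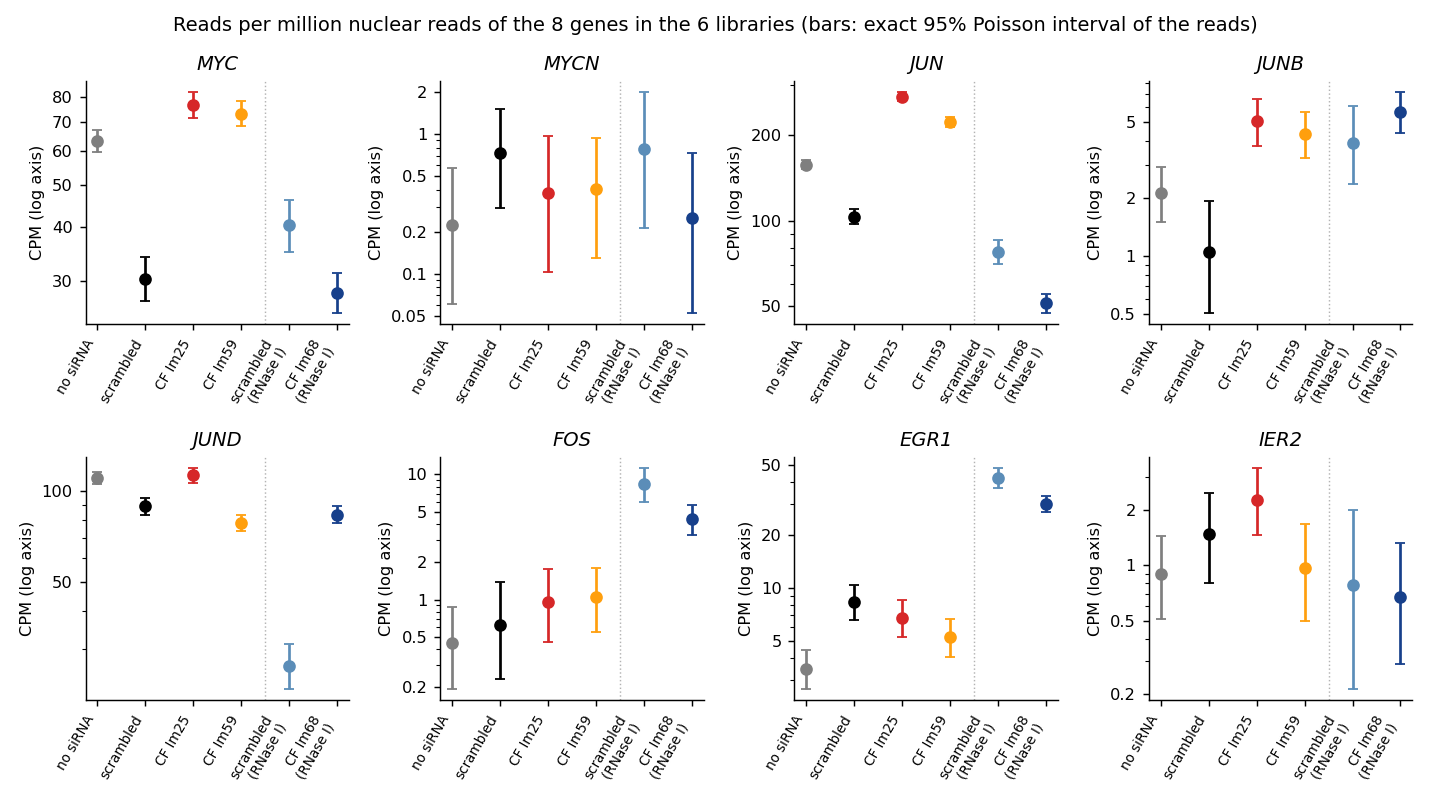
Level of each of the 8 genes in each of the 6 libraries, in CPM on a log axis, 1 library per point with the exact 95% Poisson interval of its reads. MYC, JUN and JUNB are lowest among the alkaline libraries with scrambled siRNA, and FOS and EGR1 are higher in both RNase I libraries (right of the dotted line) than in any alkaline one.

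With siRNA against CF Im59 the same members were called, MYC, JUN and JUNB. Of 5 genes tested, 3 were higher and 0 lower, where 8.99% of 15257 units were called higher and 10.6% lower. MYC was 2.40-fold (2.10 to 2.75), JUN 2.15-fold (2.00 to 2.32) and JUNB 4.12-fold (2.08 to 9.08) above scrambled siRNA. The median log2 ratio of the 5 genes was 1.11, against -0.043 for all units tested, and JUNB again passed only through the siRNA library. With at least 50 reads required in both libraries, 2 of 4 genes were called higher, where 4.41% of 11942 units were, and the medians were 0.46 and -0.10. JUND had a ratio of 0.882 (0.804 to 0.968) and EGR1 of 0.628 (0.445 to 0.884). This comparison uses the same scrambled library as that with CF Im25 siRNA, so a low count in that library raises both ratios. Against no siRNA, of 5 genes tested only JUNB was called, at 2.04-fold (1.32 to 3.18). Of 17146 units, 4.97% were called higher and 8.20% lower. JUNB had 54 reads with CF Im59 siRNA and 38 with no siRNA, so it again passed only through the siRNA library. MYC had a ratio of 1.16 (1.06 to 1.26) and JUN of 1.41 (1.34 to 1.49).

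The control libraries differed for MYC and EGR1. Of 4 genes tested for no siRNA against scrambled siRNA, 1 was higher and 1 lower, where 4.44% of 16791 units were called higher and 4.13% lower. MYC was 2.08-fold higher with no siRNA (1.83 to 2.37). EGR1 was 2.40-fold lower with no siRNA (1.70 to 3.40), and its 62 reads there gave 3.46 CPM, against 79 reads and 8.31 CPM with scrambled siRNA. JUN, with a ratio of 1.52 (1.42 to 1.64), and JUND, with 1.24 (1.15 to 1.35), were not called. The ratio of EGR1 with CF Im25 siRNA therefore depended on the control, and against no siRNA it was 1.94 (1.36 to 2.78). With CF Im59 siRNA it was 1.51 (1.05 to 2.17).

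With siRNA against CF Im68, JUND rose and no other member was called. Of 6 genes tested, 1 was higher and 0 lower, where 11.3% of 13531 units were called higher and 6.84% lower. JUND had 1981, 845, 1189 and 976 reads in the alkaline libraries, and 135 and 995 reads in the RNase I libraries. Its levels were 111, 88.9, 113 and 78.4 CPM, and 26.3 and 83.6 CPM. The RNase I library with scrambled siRNA stood below all others, and the interval of the CF Im68 library overlapped those of the alkaline libraries with scrambled and CF Im59 siRNA. JUND was 3.17-fold higher with CF Im68 siRNA than with its scrambled control (2.65 to 3.83). In that control, JUND was 3.38-fold lower than in the alkaline library with the same siRNA (2.81 to 4.08). The CF Im68 comparison has no second control with RNase I.

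MYC, JUN, FOS and EGR1 had lower levels with CF Im68 siRNA than with scrambled siRNA and none passed 2-fold. JUN had a ratio of 0.657 (0.578 to 0.748), MYC of 0.699 (0.586 to 0.835) and EGR1 of 0.715 (0.602 to 0.850). FOS, the partner of the JUN proteins in AP-1, had 43 reads with scrambled and 52 with CF Im68 siRNA, a ratio of 0.521 (0.341 to 0.799). The median log2 ratio of the 6 genes was -0.50, against 0.081 for all units tested. JUNB and FOS reached 50 reads only in the CF Im68 library. With at least 50 reads required in both libraries, 1 of 4 genes was called higher, JUND, where 3.99% of 9292 units were. Scaling by trimmed means moved all log2 ratios of this comparison by 0.18, and the ratios of MYC, JUN, FOS and EGR1 stayed below 1 with it. JUNB had a ratio of 1.44 (0.865 to 2.51).

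**Figure D2:**
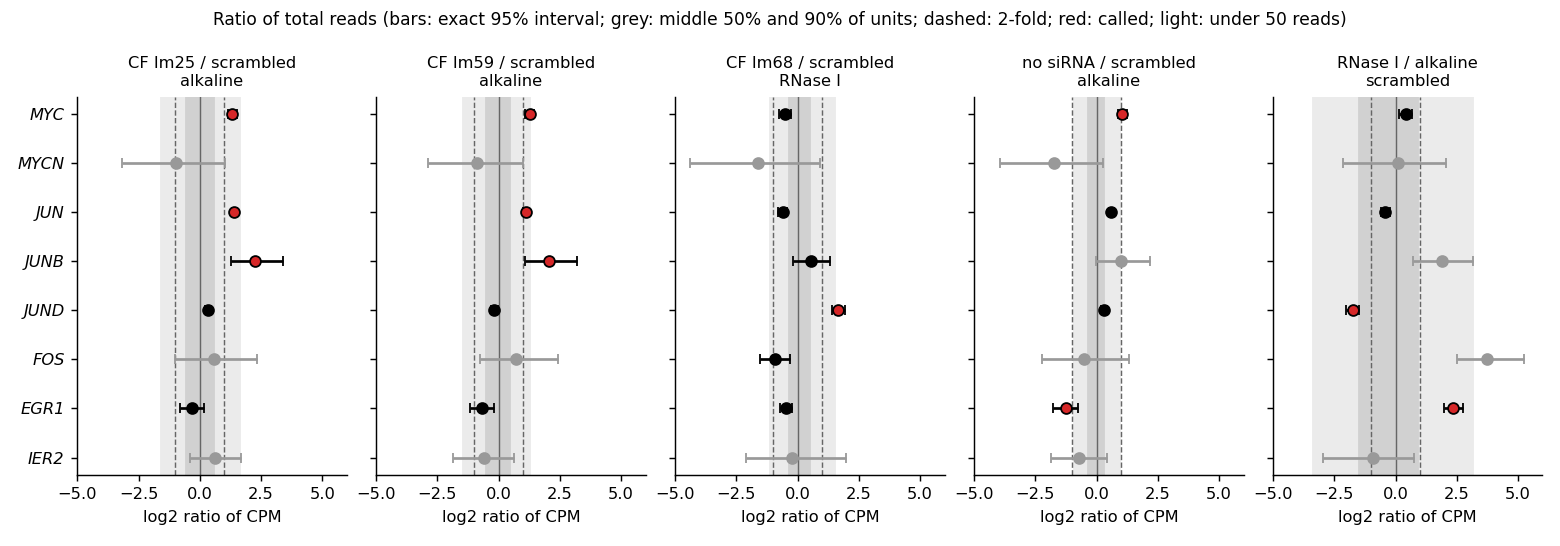
Log2 ratio of total reads of each gene in the 5 comparisons, with exact 95% intervals, over the middle 50% and 90% of all units tested (grey bands) and the 2-fold limits (dashed). Called genes are red and genes under 50 reads are light grey: MYC, JUN and JUNB lie right of the 2-fold limit with CF Im25 and CF Im59 siRNA, and JUND with CF Im68 siRNA.

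EGR1 and FOS had higher levels in the RNase I libraries than in the alkaline ones, and JUND differed between the scrambled libraries. Each of these is a single library, so fragmentation cannot be told apart from the culture or the library preparation. Between the scrambled libraries with RNase I and with alkaline hydrolysis, 23.8% of 14135 units were called higher and 34.8% lower. Of 4 genes tested, EGR1 was 5.09-fold higher with RNase I (3.92 to 6.67), JUND was lower as given above, and MYC and JUN were not called, with ratios of 1.33 (1.11 to 1.59) and 0.751 (0.667 to 0.845). EGR1 had 62, 79, 71 and 65 reads in the alkaline libraries and 217 and 360 in the RNase I libraries, which is 3.46, 8.31, 6.73 and 5.22 CPM, and 42.3 and 30.2 CPM. FOS had 8, 6, 10 and 13 reads in the alkaline libraries, and thus 0.447, 0.631, 0.948 and 1.04 CPM, beside 8.38 and 4.37 CPM in the RNase I libraries. For both genes every RNase I library was above every alkaline one, but FOS had too few reads in the scrambled libraries to be tested. Each siRNA was therefore compared with a control of its own fragmentation method.

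MYCN and IER2 were near the limit of detection. MYCN had 4, 7, 4 and 5 reads in the alkaline libraries and 4 and 3 in the RNase I libraries, at most 0.780 CPM, and all 6 intervals overlapped. IER2 had 16, 14, 24 and 12 reads and then 4 and 8 reads, at most 2.28 CPM. Many of the IER2 reads did not lie at its 3′ end. With CF Im25 siRNA, 15 of 24 reads were 4337 nt upstream of the last site, at 13261389, which is farther than the 2934 nt of its longest coding transcript in GENCODE but within the 4501 nt that RefSeq gives as the length of the gene. Differences of MYCN between libraries were not detectable at this depth. The IER2 level with CF Im25 siRNA was 2.55-fold that with no siRNA (1.30 to 5.13), from 24 and 16 reads, and its ratio to scrambled siRNA was 1.55 (0.768 to 3.23). Both counts are below the minimum of 50 reads.

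The 699 nt site of JUN took a larger share with siRNA against CF Im25 and against CF Im68. By the site-use rule given below, which leaves out this site, JUN was called with CF Im68 siRNA only. Over all units tested by that rule, 18.3% and 24.4% were called towards the upstream site in these comparisons. The median changes of the upstream share were 4.19 and 5.51 points. The 699 nt site held 17.6%, 17.1%, 43.1% and 20.7% of JUN reads in the alkaline libraries. With RNase I it held 1.25% with the control and 21.2% with CF Im68 siRNA. Among the alkaline libraries the 699 nt site had its highest share with CF Im25 siRNA, and the interval of that share overlapped none of the others. The RNase I method had only 2 libraries, a control and a knockdown, and their intervals did not overlap. With CF Im25 siRNA the change was 26.1 points (23.0 to 28.9) against scrambled siRNA and 25.5 points (23.2 to 27.8) against no siRNA. With CF Im68 siRNA it was 19.9 points (16.5 to 23.4), from 5 of 399 reads to 129 of 609 reads. With CF Im59 siRNA it was 3.62 points (0.740 to 6.33).

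The last JUN site lost share in the same pair of knockdowns. It held 40.9%, 33.1%, 18.7% and 42.1% of reads in the alkaline libraries, and 23.6% and 3.45% in the RNase I libraries. The CF Im68 library had 21 reads at this site, the fewest of the 6. Its share fell by 14.5 points with CF Im25 siRNA (interval of the difference -17.8 to -11.3). With CF Im68 siRNA it fell by 20.1 points (-24.7 to -15.8). With CF Im59 siRNA the last site was 8.98 points higher (5.46 to 12.4) than with scrambled siRNA and 1.20 points higher (-1.38 to 3.78) than with no siRNA.

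On the CPM scale, the JUN rise with CF Im25 siRNA was spread unevenly over the sites. The 699 nt site went from 17.7 to 118 CPM, a 6.69-fold rise (5.69 to 7.91), while the last site went from 34.3 to 51.1 CPM, a ratio of 1.49 (1.30 to 1.71). Against no siRNA the 699 nt site was 4.25-fold higher (3.83 to 4.73) and the last site had a ratio of 0.792 (0.713 to 0.878). With CF Im59 siRNA, where JUN was also called higher, the site ratios to scrambled siRNA were 2.61 (2.19 to 3.12) and 2.74 (2.42 to 3.10). Against no siRNA they were 1.66 (1.47 to 1.87) and 1.45 (1.34 to 1.58). The CF Im59 library therefore had higher JUN levels at both ends than either control. With CF Im25 siRNA the 520 nt site also rose over scrambled siRNA, from 44.4 to 87.0 CPM, a ratio of 1.96 (1.74 to 2.20). The largest rise in that library was at the 699 nt site.

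With CF Im68 siRNA the last JUN site was 10.4-fold lower (6.42 to 17.6), at 18.3 CPM with scrambled and 1.76 CPM with CF Im68 siRNA. The 699 nt site was at 0.975 and 10.8 CPM, a ratio of 11.1 with a wide interval (4.64 to 34.8) from the 5 control reads. Both middle sites stayed closer to their control level, with ratios of 0.895 (0.679 to 1.19) at the 591 nt site and 0.549 (0.452 to 0.667) at the 520 nt site. Of all ends at the 4 JUN sites, the mean position was 563 nt upstream of the last site with CF Im68 siRNA and 404 nt with its control. In the alkaline libraries it was 334, 374, 502 and 334 nt.

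The middle JUN sites differed between the alkaline and the RNase I libraries. The 591 nt site held 2.74% to 2.96% of reads in the 4 alkaline libraries, and 19.5% and 26.6% in the RNase I libraries. The 520 nt site was the most used or the next most used in every library, at 35.0%, 42.9%, 31.7% and 31.0% in the alkaline libraries and 47.6% and 39.7% in the RNase I libraries. At the nucleotide 59246985, taken as fixed for every library, lay 64.0% to 69.4% of the reads of this site with alkaline hydrolysis. With RNase I it held 16.8% (scrambled siRNA) and 17.4% (CF Im68 siRNA). Whether the RNase I ends were shifted or more widely spread was not tested. The part of fragmentation in the JUN changes with CF Im68 siRNA was not tested beyond the use of a control made in the same way.

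**Figure D3:**
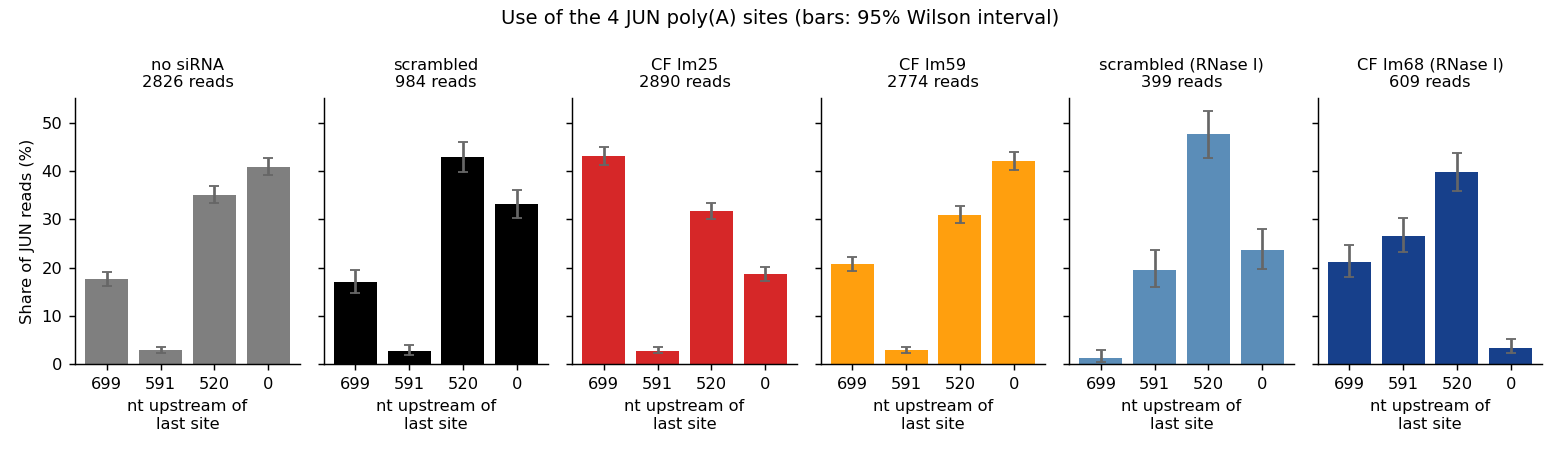
Share of JUN reads at each of its 4 poly(A) sites in each of the 6 libraries, with 95% Wilson intervals; sites are ordered from upstream (699 nt) to the last (0). The 699 nt site is tallest with CF Im25 siRNA, and the last site is nearly empty with CF Im68 siRNA.

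The site-use call compared the 2 most used sites of each gene, with at least 50 reads in both libraries and a change of at least 20 points. A pair of sites was present in 7 of the 8 genes, and MYC, JUN and EGR1 had the reads to be tested. For JUN the pair was the 520 nt site and the last site. The upstream share of this pair was 46.1%, 56.4%, 63.0% and 42.4% in the alkaline libraries, and 66.9% and 92.0% in the RNase I libraries. It rose by 25.1 points with CF Im68 siRNA (18.6 to 31.4), the only one of 3 genes called, where 24.4% of 5291 units were called towards the upstream site and 1.78% towards the downstream one. With CF Im25 siRNA it was 6.56 points higher (2.25 to 10.9) and with CF Im59 siRNA it differed by -14.0 points (-18.1 to -9.86), and 0 of 3 genes were called in either comparison. With CF Im25 siRNA, 18.3% of 6702 units were called towards the upstream site and 2.81% towards the downstream one, and with CF Im59 siRNA 2.53% and 4.76% of 6889 units. For no siRNA against scrambled siRNA JUN differed by -10.3 points (-14.4 to -6.13) and 0 of 3 genes were called, where 1.21% and 2.52% of 7177 units were. The JUN values therefore depended on the control. Against no siRNA the pair changed by 16.8 points (13.6 to 20.1) with CF Im25 siRNA and -3.75 points (-6.76 to -0.739) with CF Im59 siRNA. Neither reaches the 20 points of the rule.

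The pair fixed by the rule left out the 699 nt site, which held the change with CF Im25 siRNA. Setting that site against the last one, a choice made after the values were seen, gave an upstream share of 30.1%, 34.0%, 69.8% and 33.0% in the alkaline libraries, and 5.05% and 86.0% in the RNase I libraries. Among the alkaline libraries the controls and CF Im59 siRNA lay together, and CF Im25 siRNA stood 35.8 points above scrambled siRNA (31.0 to 40.4). CF Im68 siRNA stood 80.9 points above its own control (72.0 to 86.4). The scrambled controls differed by -29.0 points (-34.1 to -21.5) for RNase I against alkaline hydrolysis, so the shares themselves cannot be set against each other across methods.

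EGR1 gained reads at an upstream site with CF Im68 siRNA. Its sites on the plus strand of chromosome 5 lay at 137804720, 137804915 and 137804992, which is 272 and 77 nt upstream of the last site and the last site itself. The 272 nt site held 0, 1, 6 and 2 reads in the alkaline libraries, out of 62 to 79 for the gene. It held 8 of 217 reads with scrambled and 92 of 360 reads with CF Im68 siRNA in the RNase I libraries. That is 3.69% and 25.6% of EGR1 reads, a change of 21.9 points (16.4 to 26.9), and at 1.56 and 7.73 CPM a 4.95-fold difference (2.41 to 11.8). The 272 nt site is outside the pair of the site-use rule, so its change is not a call. By that rule, 24.4% of 5291 units were called towards the upstream site with CF Im68 siRNA. With CF Im25 siRNA the 6 reads were 8.45% of the gene, and the interval of the ratio to the 1 control read included 1 (0.656 to 249). In the scrambled RNase I library the named sites held 74.2% of EGR1 reads, and in the other libraries 86.7% to 100%.

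Within the pair tested by the rule, the 77 nt site and the last site of EGR1, none of the targeting siRNAs changed the share by 20 points. The share did differ between the scrambled libraries. The 77 nt site held 63.4% of the pair with RNase I and 19.1% with alkaline hydrolysis, a difference of 44.3 points (30.8 to 54.8). EGR1 was the only one of 3 genes called in this comparison, where 24.7% of 5014 units were called towards the upstream site and 21.1% towards the downstream one. With CF Im68 siRNA the share was 64.1%, 0.692 points from its control (-9.04 to 10.6).

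JUND used 1 main site in all libraries. The last site, at 18390571, held 96.6%, 95.3%, 95.7% and 96.8% of JUND reads in the alkaline libraries, and 96.3% and 85.8% in the RNase I libraries. The CF Im68 library stood below all others. There, a site 232 nt upstream held 10.3% of reads (102 of 995), against 2.96% (4 of 135) in its control, a change of 7.29 points (2.55 to 10.0). In the alkaline libraries that site held 2.57% to 3.91%. Its mean was below 5%, so it was named after its values were seen. Most of the JUND rise with CF Im68 siRNA was at the last site, which went from 25.3 to 71.7 CPM, 2.83-fold (2.35 to 3.43).

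MYC cleavage did not shift in any comparison by the rule. A site 152 nt upstream of the last, at 128753520, held 4.42%, 5.54%, 6.44% and 3.96% of MYC reads in the alkaline libraries, and 4.35% and 7.74% in the RNase I libraries. All 6 intervals overlapped. The last site at 128753672 held 88.4% to 94.1%. The rise of MYC with CF Im25 and CF Im59 siRNA lay at this last site, which had 27.6 CPM with scrambled siRNA and 70.6 and 68.8 CPM with the targeting siRNAs.

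JUNB, FOS, MYCN and IER2 had too few reads for the site rule. JUNB cleavage was divided between the last site and a site 73 nt upstream, which held 50%, 40%, 39.6% and 31.5% of its reads in the alkaline libraries and 25.0% and 49.3% in the RNase I libraries. All 6 intervals overlapped. FOS used its last site for 80.0% to 87.5% of its 6 to 13 reads in the alkaline libraries. A site 67 nt upstream held 46.5% (20 of 43 reads) and 30.8% (16 of 52 reads) in the RNase I libraries. In the alkaline libraries that site had 1 read in all.

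**Figure D4:**
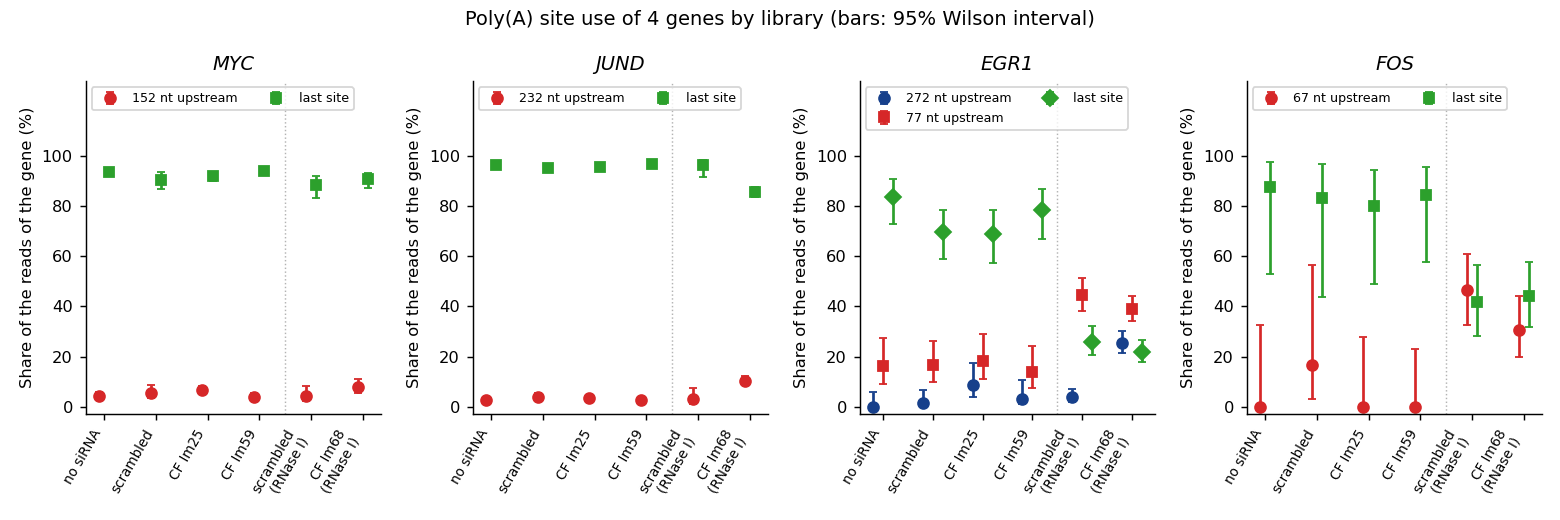
Share of the reads of MYC, JUND, EGR1 and FOS at each site in each of the 6 libraries, with 95% Wilson intervals. MYC keeps its last site throughout, the last site of JUND is lower only with CF Im68 siRNA, and EGR1 shows the site 272 nt upstream mainly with CF Im68 siRNA.

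Other early response genes and the MYC network were described with 4 further lists of 34 genes, whose windows were placed by hand. Over the lists, 4 of 29 genes tested were higher and 1 lower with CF Im25 siRNA, 2 higher and 1 lower of 29 with CF Im59 siRNA, and 2 higher and 0 lower of 27 with CF Im68 siRNA. Site use was called towards the upstream site in 3 of 16, 0 of 16 and 3 of 12 genes tested. These counts are near or below the shares over all units, which were 13.3%, 8.99% and 11.3% higher in total and 18.3%, 2.53% and 24.4% towards the upstream site. The list of other early transcription factors had a median log2 ratio of -0.081, -0.32 and 0.40 in the 3 comparisons. Early response and feedback genes were at 0.58, 0.16 and 0.11, the MYC network at 0.36, -0.11 and 0.027, and the upstream factors and AP-1 partners at 0.038, -0.20 and 0.48.

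Among the other AP-1 genes, FOSL2 was called higher and FOSL1 lower. In each knockdown pair with a call, the gene reached 50 reads in only 1 library, the one in which it was high. FOSL2 with CF Im59 siRNA and FOSL1 with CF Im68 siRNA had too few reads to be tested. FOSL2 was 2.88-fold higher with CF Im25 siRNA (1.72 to 5.03) and 2.18-fold higher with CF Im68 siRNA (1.27 to 3.99), and against no siRNA its ratio with CF Im25 siRNA was 1.75 (1.22 to 2.53), which is not a call. FOSL1 had 71 reads with scrambled siRNA and 22 and 18 with CF Im25 and CF Im59 siRNA. It was 3.58-fold (2.19 to 6.07) and 5.16-fold (3.05 to 9.21) lower. FOSL1 was also 2.19-fold lower with no siRNA than with scrambled siRNA (1.53 to 3.14). Against no siRNA, FOSL1 was 2.36-fold lower with CF Im59 siRNA (1.37 to 4.24), and with CF Im25 siRNA its ratio was 0.612 (0.358 to 1.01).

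Of 11 early response and feedback genes, 2 were called higher with CF Im25 siRNA, 1 with CF Im59 siRNA and 1 with CF Im68 siRNA. These were of 9, 9 and 7 tested, and none was called lower. Over all units tested, 13.3%, 8.99% and 11.3% were called higher and 11.9%, 10.6% and 6.84% lower. IER3, an early gene that modulates cell survival, went from 71.8 CPM to 209 CPM with CF Im25 siRNA, 2.91-fold (2.67 to 3.18), and was 3.88-fold above no siRNA (3.60 to 4.19). BTG2, an antiproliferative gene, was 2.81-fold higher with CF Im25 siRNA (2.10 to 3.80) and 3.40-fold higher with CF Im59 siRNA (2.57 to 4.55). Against no siRNA its ratios were 1.61 (1.32 to 1.98) and 1.96 (1.63 to 2.36), and neither is a call. PPP1R15A, which directs dephosphorylation of eIF2α after stress, was 2.77-fold higher with CF Im68 siRNA (2.05 to 3.80). Its level was 27.0 CPM with that siRNA and 9.75 CPM in the RNase I control. In that control PPP1R15A was 2.47-fold lower (1.81 to 3.43) than in the alkaline library with scrambled siRNA, which had 24.1 CPM.

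In the MYC network and among upstream factors, 6 calls were of site use and 2 of totals. In the order CF Im25, CF Im59 and CF Im68 siRNA, site use was called in 1, 0 and 2 of 7 MYC network genes tested. Among upstream factors it was called in 2 of 3, 0 of 3 and 1 of 1. Over all units 18.3%, 2.53% and 24.4% were called towards the upstream site. The totals called were 1 of 9 MYC network genes with CF Im25 siRNA and 1 of 5 upstream factors with CF Im59 siRNA, beside 13.3% and 8.99% of units. MNT, a MAX partner that opposes MYC, used its upstream site for 80.2% of the pair with CF Im25 siRNA and 30.8% with scrambled siRNA, a rise of 49.4 points (39.8 to 57.6). With CF Im68 siRNA the same MNT site rose by 23.4 points (15.5 to 29.9). MAX, the partner of MYC, rose by 21.3 points with CF Im68 siRNA (8.03 to 32.6). SRF, which drives early genes through the serum response element, rose by 27.4 points with CF Im25 siRNA (16.8 to 36.2) and 24.8 points with CF Im68 siRNA (15.5 to 32.2). CREB1, a cAMP-responsive activator of FOS, rose by 39.2 points with CF Im25 siRNA (30.9 to 46.8). Against no siRNA, the change with CF Im25 siRNA was 40.5 points (31.6 to 48.5) for MNT, 38 points (30.4 to 45.2) for CREB1 and 19.3 points (11 to 27.3) for SRF, which is below the 20 points of the rule. MXI1, a MAX partner that opposes MYC, was 2.00-fold higher in total with CF Im25 siRNA (1.66 to 2.42), and SRF 2.06-fold higher with CF Im59 siRNA (1.63 to 2.61). Against no siRNA these ratios were 1.58 (1.37 to 1.83) and 1.29 (1.09 to 1.52), and neither is a call.

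**Figure D5:**
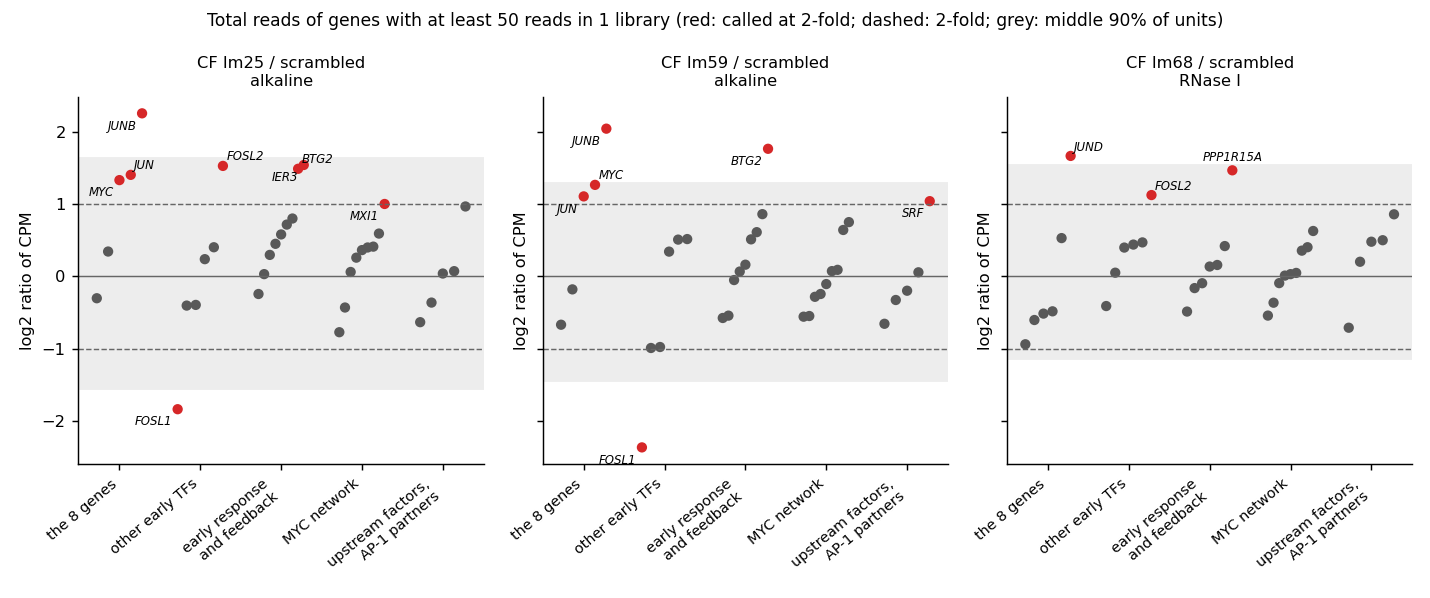
Log2 ratio of total reads for genes of the 8 and of 4 other lists with at least 50 reads in 1 library, in the 3 knockdown comparisons; each point is a gene, called genes are red and named, and the grey band holds the middle 90% of units. FOSL1 lies lowest with CF Im25 and CF Im59 siRNA, and JUNB highest.

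Likeness of profiles over the 6 libraries was measured as the root mean square difference of log2 CPM, each gene centred on its mean, among 41 other genes of the 8 and the lists. It was computed for members with at least 50 reads in every library. The nearest gene to MYC was MXD3, at 0.35, and JUN was next at 0.38. The nearest to JUN was MYC, at 0.38. JUND was nearest to ATF3, at 0.44, and EGR1 to NR4A1, at 0.37. With 6 libraries of 2 fragmentation methods, these distances also hold the difference between the methods.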

How the data were processed

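The deposited files hold unscaled counts of read 3′ ends by position and strand, in 1 file per library. The submitters' processing notes name hg19 and GRCh37. Not given in the sources used here are the aligner, the read filters and whether duplicates or internally primed reads were removed. No molecular identifiers are described, so intervals cover counting error only and can be too narrow.

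Sites were called on the 6 libraries pooled at equal weight (±25 nt, mean of at least 1 CPM), and sites on one strand with gaps of at most 5 kb formed units. Reads of a gene were all reads in its window. Ratios of CPM have exact conditional binomial intervals, shares have Wilson intervals and differences of shares Newcombe intervals. Calls are rules of size (2-fold or 20 points, at least 50 reads). They were tested only on simulated data with counting error alone, as the intervals assume. Those data held no spread between cultures, so false calls from such spread were not tested. The 8 genes, the lists and the rules were chosen with earlier results of these data known. The named genes are the 8, from each list and knockdown up to 2 called highest, up to 2 called lowest and up to 2 with the largest called site change, and the nearest profiles. List windows were written by hand and kept where strand and length fitted RefSeq genes (GRCh38) within 2500 nt. SGK1, MGA, ELK4 and PAX2 failed and were left out. Alternatives used edgeR 4.0.16 and DESeq2 1.42.0 scaling factors only, in R 4.3.3. Other steps used Python 3.11.15 and scipy 1.17.1.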

Additional observations from a re-analysis of the deposited data

Results flagged for a closer look

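Reads on the strand opposite to JUNB, which no comparison of the genes used, numbered 73, 39, 100 and 65 in the alkaline libraries (no, scrambled, CF Im25 and CF Im59 siRNA), and 2 and 19 in the RNase I libraries (scrambled, CF Im68). With CF Im25 siRNA they were 2.31-fold above scrambled siRNA (interval 1.58 to 3.44). In the alkaline libraries these opposite-strand reads outnumbered the JUNB reads themselves. The counts are strand-specific, so they do not enter the JUNB levels. Every other gene of the 8 had at most 6 reads on its opposite strand in any library.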

How the results depend on the processing

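Each group held 1 library, so no replicate could be left out. No paired analysis was possible because the groups share no replicate numbers beyond the single library of each. Of 64 counts of called genes under another setting, 55 stayed within 1.5 times the reported count. With no siRNA as the control, 1 gene (JUNB) was called by total in place of 3 for CF Im25 siRNA, and likewise 1 in place of 3 for CF Im59 siRNA. A 1.5-fold rule gave 3 genes with CF Im68 siRNA in place of 1 (JUN and FOS lower, JUND higher). For no siRNA against scrambled siRNA, thinning all libraries to 5129401 reads or a minimum of 100 reads left 1 call, MYC, in place of 2. For RNase I against alkaline hydrolysis, a minimum of 20 reads gave 4 calls in place of 2, adding JUNB and FOS as higher. A 10-point rule for site use added JUN in 3 comparisons: 1 call in place of 0 with CF Im59 siRNA, 1 in place of 0 for no siRNA, both towards the last site, and 2 in place of 1 for RNase I. No value of a called gene changed sign. Both JUNB calls were lost with a minimum of 100 reads, when libraries were thinned, and when 50 reads were required in both libraries, a setting chosen after seeing the data. The JUNB call with CF Im59 siRNA was also lost when only reads in called sites were counted. With sites of ±12 nt the MYC upstream share was 18.0 points higher with RNase I than with alkaline hydrolysis, in place of -1.07. Scaling by trimmed means moved RNase I against alkaline hydrolysis by 0.14 and by median of ratios by 0.22 on the log2 scale. Depth limits JUNB, FOS, MYCN and IER2 most.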
